A study of Rattus norvegicus with 71 samples.

Results

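Mast cell transcripts in neonatal rat brain were followed through 8 genes, taken from the deposited count table by their symbols: the tryptase genes Tpsab1 and Tpsb2, the chymase gene Cma1, the carboxypeptidase gene Cpa3, the growth factor receptor gene Kit, the IgE receptor genes Ms4a2 and Fcer1a, and the histamine-forming gene Hdc. All 8 were found among the 17494 genes of the table. The 4 proteases, both IgE receptor genes and Hdc were low, with medians over all 71 animals from 0 counts (Fcer1a) to 64 counts (Cpa3), and they were several-fold higher in the second sequencing batch of the study than in the first, in unexposed and in exposed rats. For Fcer1a, the difference in the only exposed group present in both batches rested largely on a single animal. The symbols were chosen by cell type with earlier results of these data in view, and which contrast led to them is not recorded, so the levels and calls given here describe these animals and are no independent evidence.

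Mast cells are resident immune cells derived from bone marrow and yolk sac progenitors. In the brain they sit mainly in the meninges and along vessels of the thalamus and hippocampus, and their number and place change in early postnatal life. Their granules hold histamine and serine proteases, which are released when antigen crosslinks IgE on the FcεRI receptor or when other receptors are engaged, and their survival depends on signalling from KIT ligand through KIT.

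The study is a rat model of maternal autoantibody-related autism (MARA), in which maternal IgG raised against fetal brain proteins reaches the developing brain. Sprague-Dawley wild-type dams were immunised before mating with synthetic peptides of the target proteins in Freund's adjuvant, while control dams received adjuvant and saline, so that adjuvant was common to every group. Offspring of both sexes were taken at postnatal day 2 (PND2), and poly-A RNA was sequenced from a single 150 µm coronal brain slice that took in the hippocampal formation and the cortex and subcortical tissue around it. The 71 animals were 24 controls from 7 litters, 25 exposed to LDHA/B+CRMP1+STIP1 from 9 litters, 8 exposed to CRMP1+CRMP2 from 4 litters, 6 exposed to CRMP1+GDA from 3 litters and 8 exposed to STIP1+NSE from 4 litters. The names stand for lactate dehydrogenase A and B, collapsin response mediator protein 1 (CRMP1) and its relative CRMP2, stress-induced phosphoprotein 1, guanine deaminase and neuron-specific enolase.

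The sample titles fall into separate series that were processed and sequenced as batches. Batch 1 held 28 animals of 7 litters, of which 12 were controls and 16 LDHA/B+CRMP1+STIP1. Batch 2 held 43 animals of 20 litters, of which 12 were controls and 9 LDHA/B+CRMP1+STIP1, together with all animals of the other patterns. Library totals ranged from 24936909 to 32455969 counts in batch 1 and from 24880182 to 36234952 in batch 2, so 1 CPM (counts scaled to a common library size) stood for 24.9 to 36.2 counts. Littermates share a dam, and p-values over animals measure the spread between animals, not between litters. In bulk tissue, fewer mast cells and less RNA per mast cell cannot be told apart.

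GATA2 and GATA1 are transcription factors of the mast cell lineage, and GATA sites are known in promoters of mast cell genes such as Cpa3. Since the proteases varied together across animals, the 100 bases before each start in RefSeq (GRCr8) were searched for GATAA and for its reverse complement TTATC, which overlap the longer AGATAA and TTATCT. Of the 8 genes, 7 had a RefSeq promoter entry. The motif was found in 4 of these 7, against 9.15% of 33469 rat promoters with a window of the same length. In the 250 bases before the start, also searched, the same 4 genes held it, against 23.5% of the promoters. Tpsab1 had a second match there, TTATC at 180 bases before the start. The sequences printed are those of the 4 proteases and of Fcer1a, written 5′ to 3′ on the strand of the gene and ending at the base before the start, with the motif in capitals:

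Tpsab1 (chr10:14867303-14867402, minus strand): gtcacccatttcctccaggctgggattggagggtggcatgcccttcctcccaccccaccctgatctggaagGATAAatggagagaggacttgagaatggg
Tpsb2 (chr10:14886210-14886309, plus strand): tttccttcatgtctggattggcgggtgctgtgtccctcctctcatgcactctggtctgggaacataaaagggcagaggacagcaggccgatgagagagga
Cma1 (chr15:33390134-33390233, minus strand): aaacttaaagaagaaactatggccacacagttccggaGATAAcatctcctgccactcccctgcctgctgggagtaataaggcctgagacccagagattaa
Cpa3 (chr2:104673238-104673337, minus strand): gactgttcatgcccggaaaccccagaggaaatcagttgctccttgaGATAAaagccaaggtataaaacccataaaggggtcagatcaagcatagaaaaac
Fcer1a (chr13:88224680-88224779, minus strand): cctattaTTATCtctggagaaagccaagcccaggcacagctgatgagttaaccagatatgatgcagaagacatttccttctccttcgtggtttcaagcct

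In Cma1 the motif began 63 bases before the start and in Cpa3 54 bases before it, in both as part of AGATAA, which 3.70% of the promoters held in this window. In Fcer1a it was read on the opposite strand, 93 bases before the start, and there too as part of the longer motif (TTATCT). In Tpsab1 it began 29 bases before the start and was not part of the longer motif. Tpsb2, the tryptase gene next to Tpsab1, held no match in this window, nor did Kit or Hdc. A match is a property of the sequence and was not tested against the values.

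In the rn7 coordinates of the count table, Tpsab1 (chr10:14360396-14362811) and Tpsb2 (chr10:14381779-14383571) lie close together, and they are closely related paralogs, so reads shared between them may be split by the counting in a way the sources used here do not give. Cma1 (chr15:29417451-29420233) lies near Mcpt1l1 (chr15:29903993-29906649) and Mcpt2 (chr15:29871391-29873725), relatives of the chymase family for which the same reservation holds. Cpa3 (chr2:102712587-102744203), Kit (chr14:32548877-32624652), Ms4a2 (chr1:208440361-208448310), Fcer1a (chr13:85686100-85692351) and Hdc (chr3:113847256-113865334) lie apart from one another.

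Per exon length, Kit stood far above the others. Its mean level was 21.7 ± 3.01 RPKM (CPM per kilobase of exon, SD, n = 28) in batch 1 and 29.3 ± 3.21 RPKM (n = 43) in batch 2. KIT is not confined to mast cells and is also made by neurons, so its level in a brain slice is not a mast cell level alone. Cma1 came next with 0.732 ± 0.629 RPKM in batch 1 and 6.28 ± 5.31 RPKM in batch 2, followed by Cpa3 with 0.603 ± 0.572 and 5.06 ± 4.57 RPKM. The order below them was Tpsab1, Tpsb2, Hdc, Ms4a2 and Fcer1a in both batches, down to 0.0140 ± 0.0414 RPKM of Fcer1a in batch 1 and 0.176 ± 0.284 RPKM in batch 2. Neighbours in this order differed by less than the larger of their SDs, apart from Kit and Cma1 in both batches and Hdc and Ms4a2 in batch 2.

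Cpa3, a carboxypeptidase that trims peptides in the granule, was counted in every batch 2 animal, with 6 counts at the lowest, 172 at the median and 999 at the highest. In batch 1 it ranged from 0 to 90 counts with a median of 19. The ranges overlapped, and 30 of the 43 batch 2 animals lay above every batch 1 animal in CPM. Cma1, whose chymase cleaves after aromatic residues, ran from 0 through a median of 17 to 54 counts in batch 1 and from 10 through 134 to 734 counts in batch 2. Here 35 of the 43 batch 2 animals lay above the batch 1 range.

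The tryptases, which form heparin-bound tetramers, followed the same division. Tpsab1 had 0 to 36 counts in batch 1 (median 8) and 12 to 717 counts in batch 2 (median 68), with 32 of 43 batch 2 animals above the batch 1 range. Tpsb2 had 0 to 24 counts in batch 1 (median 6) and 2 to 462 counts in batch 2 (median 36), with 29 of 43 above it. A single batch 2 animal, a female of the LDHA/B+CRMP1+STIP1 group and the only animal of its litter, held the highest value of all 4 proteases, of Ms4a2 and of Hdc in CPM.

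Hdc, which encodes the enzyme that makes histamine and is also expressed in histaminergic neurons of the hypothalamus, had 0 to 27 counts in batch 1 (median 8) and 4 to 162 counts in batch 2 (median 46). Ms4a2, the β chain of FcεRI, had 0 to 18 counts in batch 1 (median 2) and 0 to 84 counts in batch 2 (median 15), and was at 0 in 12 of 28 and 2 of 43 animals. Fcer1a, the IgE-binding α chain, was at 0 in 25 of the 28 batch 1 animals and in 11 of the 43 batch 2 animals, and its highest counts were 4 and 52. At these counts single animals cannot be ranked, and Fcer1a passed 1 CPM in 2 animals only, of different exposed groups, so that with a level filter it entered the test of the 5 groups within batch 2 alone. Kit ran from 1831 through a median of 2222.5 to 3134 counts in batch 1, and in batch 2 from 2823 through 3188 to 4563 counts, and the batches overlapped.

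**Figure D1:**
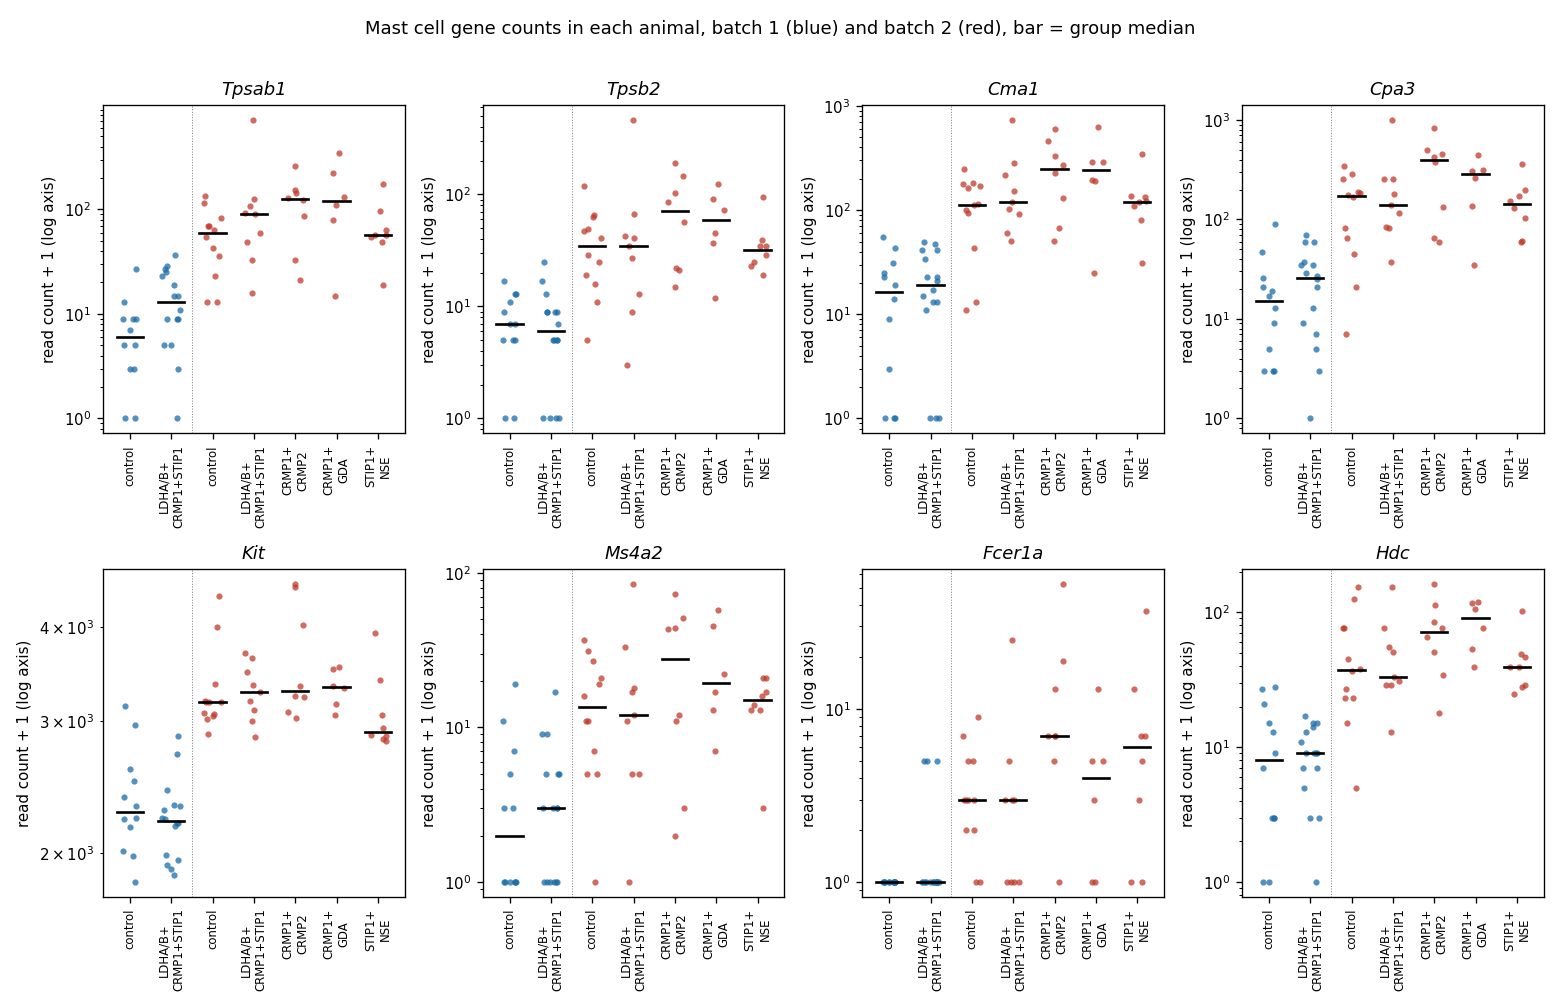
Read count + 1 (log axis) of each of the 8 genes in every animal, by group, with batch 1 in blue, batch 2 in red and a bar at each group median. For the proteases, Ms4a2 and Hdc the medians of both batch 2 groups that also exist in batch 1 stand above their batch 1 counterparts, while Kit shows a smaller shift from a high level.

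The relative counts of the 4 proteases differed little between the batches although their level did. Pooled over animals, Cpa3 made up 38.9% of the protease counts in batch 1 and 39.0% in batch 2. Cma1 made up 32.1% and 33%, Tpsab1 17.9% and 18%, and Tpsb2 11% and 10.1%. Among the 47 animals with at least 100 protease counts, the share of Cpa3 ran from 25.2 to 59.2% with a median of 40.9%, and the share of Tpsb2 from 1.04 to 17.9% with a median of 8.75%.

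The 24 controls, which had no peptide exposure in either batch, gave the first comparison. Cpa3 had 2 to 90 counts in the 12 batch 1 controls (median 14) and 6 to 347 counts in the 12 batch 2 controls (median 171.5), a mean of 0.739 ± 0.899 CPM (SD, n = 12) against 5.13 ± 3.72 CPM (n = 12). Of the batch 2 controls, 7 lay above the batch 1 range. The mean was 6.95-fold higher, and the fitted log2 fold change was 2.80 ± 0.61 (SE, edgeR quasi-likelihood test with sex as covariate, FDR = 0.00097). Tpsab1 had 0 to 26 counts in batch 1 controls (median 5) and 12 to 134 in batch 2 controls (median 58). Its log2 fold change was 3.09 ± 0.50 (FDR = 3.3e-05), and 9 of 12 batch 2 controls lay above the batch 1 range.

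Without a level filter, all 8 genes were called higher in the batch 2 controls at an FDR under 0.1, where 36.9% of the genes tested were called and 20.1% called higher. With the filter 7 entered the fit and were called, among 41.5% of 12565 genes called and 21.3% called higher, but no batch 1 control passed 1 CPM of Tpsab1, Tpsb2 or Ms4a2, so these 3 entered it through batch 2 alone. Hdc passed 1 CPM in 1 batch 1 control and 7 batch 2 controls, so it met the filter of 2 animals only with batch 2. With the filter, the log2 fold change was 2.63 ± 0.60 for Cma1, 2.44 ± 0.49 for Tpsb2, 2.26 ± 0.53 for Hdc and 1.99 ± 0.65 for Ms4a2, with an FDR of 0.020. For Kit it was 0.44 ± 0.08, from 84.0 ± 11.9 to 113 ± 15.4 CPM. Fcer1a was at 0 in all 12 batch 1 controls and had 32 counts over the 12 batch 2 controls, at least 10.3-fold higher when batch 1 is set at a floor of 3 counts over the group, or at least 5.45-fold with counts halved in case both ends of a read pair were counted. Its FDR without a level filter was 0.0014.

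The LDHA/B+CRMP1+STIP1 animals, the only exposed group in both batches, showed the same direction. Cpa3 had 0 to 68 counts in the 16 batch 1 animals (median 25) and 36 to 999 counts in the 9 batch 2 animals (median 139), and 8 of the 9 lay above the batch 1 range. The mean was 8.42-fold higher for Cpa3, 8.86-fold for Cma1, 9.67-fold for Tpsab1, 11.1-fold for Tpsb2, 5.59-fold for Ms4a2, 5.72-fold for Hdc and 1.34-fold for Kit. The animal of litter 9_24 carried much of this: without it the means were 4.80-fold higher for Cpa3, 5.68-fold for Cma1, 4.58-fold for Tpsab1, 3.89-fold for Tpsb2, 3.12-fold for Ms4a2 and 4.15-fold for Hdc. For Fcer1a the mean was 4.83-fold higher with this animal and 1.46-fold without it. Without a level filter, all 8 genes were called higher in batch 2 in this group, beside 20.3% of all genes tested (edgeR, FDR = 2.5e-05 for Hdc to 0.057 for Fcer1a). With the animal of litter 9_24 left out, 7 of the 8 were called higher, beside 20.2% of genes, and Fcer1a was not (0.72 ± 0.81, FDR = 0.54). Both groups moved with the batch, and the cause of the difference between batches was not tested.

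**Figure D2:**
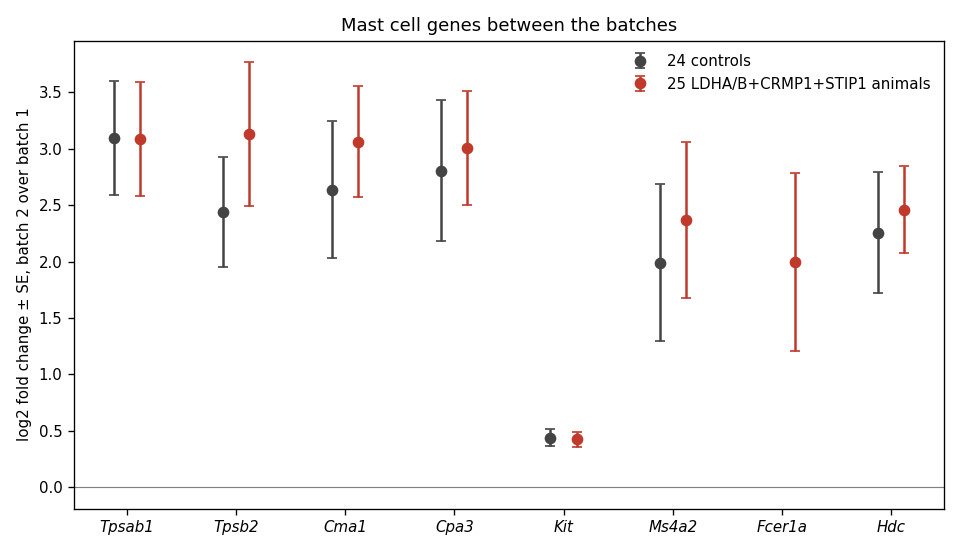
Log2 fold change (± SE) of each gene in batch 2 over batch 1, in the 24 controls (grey) and in the 25 LDHA/B+CRMP1+STIP1 animals (red), from edgeR without a level filter. Fcer1a is not drawn for the controls because all batch 1 controls were at 0. Every gene drawn lies above 0, with Kit at 0.44 in the controls and 0.43 in the exposed animals.

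With the litter as a random effect in limma, all log2 fold changes between the batches of controls stayed positive, but Cpa3 (3.02 ± 1.40, FDR = 0.15) and Ms4a2 (2.66 ± 1.17, FDR = 0.13) missed the threshold over the 7 control litters. Calls fell over all genes too: with the level filter limma called 2813 of 12565 genes, where edgeR called 5218. Leaving out the batch 1 litter RNA4 also left Ms4a2 above the threshold (1.48, FDR = 0.12), in a fit that called 4126 of 12532 genes.

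Markers of the tissue in the slice moved with batch as well. The summed CPM of 7 choroid plexus markers was 4.13 to 580.1 in batch 1 but 146 to 3338 in batch 2, a 37-fold difference of medians, and that of 5 thalamus markers from 49 to 126 and from 62.7 to 1060, a 10.5-fold difference. Sums of meningeal (10 genes), border macrophage (4) and erythroid (7) markers had medians 1.6-fold, 1.62-fold and 1.56-fold higher, microglia (6) 1.06-fold and endothelium (5) 1.17-fold. The batches overlapped in every one of these sums. The position of the slice, the tissue it held and the batch cannot be told apart.

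Some batch 2 animals had thalamus or choroid plexus sums inside the batch 1 range. In the 3 batch 2 animals whose thalamus sum lay inside the batch 1 range, Cpa3 stood at 3.75, 4.01 and 12.4 CPM, above the batch 1 maximum of 3.11 CPM, and all 3 also lay above the batch 1 range of Cma1. For Tpsab1 2 of the 3 did so, and for Tpsb2 1. These 3 animals were not like batch 1 in other tissue. Their mean log2 levels of meningeal markers were 5.61 to 6.26, where batch 1 reached at most 5.50. Border macrophage markers stood at 2.14 to 2.38 (batch 1 at most 2.09) and choroid plexus markers at 5.16 to 6.22 (batch 1 at most 3.84). By the mean log2 level of the thalamus markers 5 batch 2 animals lay inside the batch 1 range, of which 4 exceeded it in Cpa3 (lowest 2.24 CPM), 5 in Cma1, 3 in Tpsab1 and 2 in Tpsb2. None of these animals was a control. In the 14 whose choroid plexus sum lay inside the batch 1 range, 5 of them controls, Cpa3 ran from 0.210 through a median of 2.83 to 23.3 CPM, beside a batch 1 median of 0.671 CPM, and 6 of the 14 lay above the batch 1 range. These 14 were not matched to a typical batch 1 animal in choroid plexus RNA. The batch 1 sums reached 580 CPM with a median of 27.6 CPM, and the lowest batch 2 sum was 146 CPM.

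Basophils and eosinophils share the IgE receptor and other genes with mast cells. Of their 5 markers (Mcpt8, Prss34, Epx, Prg2 and Prg3) 3 had a median of 0 in each batch, and their sum reached at most 0.634 CPM in batch 1 and 0.703 CPM in batch 2. Markers of melanocytes, which also carry KIT, summed to a median of 0.805 and 0.790 CPM over the 3 genes measured. T and NK cell markers all had a median of 0 in both batches.

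The exposed animals were compared with all 24 controls, adjusting for 1 surrogate variable as the study did, and again within batch. That surrogate variable carried the batch to a large part, with 72.8 to 86.1% of its variance lying between the batches in the 5 fits. The 5 fits share their controls. In CRMP1+CRMP2 animals, all of batch 2, Cpa3 had 58 to 834 counts with a median of 398.5, beside 6 to 347 counts with a median of 171.5 in the batch 2 controls. The mean was 10.7 ± 7.32 CPM (SD, n = 8) against 5.13 ± 3.72 CPM (n = 12), and the groups overlapped.

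Against all controls, 4 of the 7 genes that passed the level filter were higher in CRMP1+CRMP2 animals, in a fit that called 11.4% of 12691 genes and 4.83% higher. These were the 4 proteases. Cpa3 had a log2 fold change of 1.80 ± 0.51 (SE, edgeR quasi-likelihood test, FDR = 0.040), Cma1 1.69 ± 0.49 (FDR = 0.042), Tpsb2 1.56 ± 0.46 (FDR = 0.044) and Tpsab1 1.53 ± 0.42 (FDR = 0.032). Ms4a2 (1.36 ± 0.57, FDR = 0.14), Hdc (0.90 ± 0.42, FDR = 0.19) and Kit (0.15 ± 0.09, FDR = 0.27) were not called. Without a level filter, Fcer1a was called (3.19 ± 0.60, FDR = 0.0033), where 7.53% of genes were.

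Within batch 2, none of the 8 genes was called in CRMP1+CRMP2 animals. The log2 fold changes there were 1.07 ± 0.53 for Cpa3 (FDR = 0.27), 1.02 ± 0.48 for Cma1 (FDR = 0.24), 0.84 ± 0.43 for Tpsab1 (FDR = 0.28) and 0.81 ± 0.50 for Tpsb2 (FDR = 0.36), in a fit that called 1.01% of 12605 genes. Of the 7 genes in that fit, 1 (Cma1) had an unadjusted p under 0.05, as 20% of all genes did. Within batch 2 and without a level filter, limma with the litter as a random effect called 0 of 14775 genes. Its lack of calls is therefore no result about the mast cell genes. Fitted with batch and sex in place of the surrogate variable, none of the 7 was called either, beside 3.87% of genes. Leaving out litter 9_1 or litter 9_6 of the 4 exposed litters also took the count of called genes among the 7 from 4 to 0. Over all genes, 1491 of 12660 were called without litter 9_1, but only 41 of 12653 without litter 9_6.

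LDHA/B+CRMP1+STIP1 animals were the largest exposed group. Within batch 1, Tpsab1 had 0 to 36 counts with a median of 12 in 16 exposed animals and 0 to 26 counts with a median of 5 in 12 controls. Within batch 2 it had 15 to 717 counts with a median of 90 in 9 exposed animals and 12 to 134 counts with a median of 58 in 12 controls. The groups overlapped in both batches. None of the 7 genes was called over both batches, where edgeR called 0.0157% of 12700 genes, and limma with the litter as a random effect called none, while 3 of the 7 and 7.17% of all genes had an unadjusted p under 0.05. The largest was Tpsab1 (1.57 ± 0.39, FDR = 0.15), which the DESeq2 Wald test called (FDR = 0.063) with 0.118% of genes.

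Within the batches and without a level filter, the Tpsab1 log2 fold change was 1.04 ± 0.54 in batch 1 (FDR = 0.88) and 1.09 ± 0.59 in batch 2 (FDR = 0.91). The animal with the highest counts decided much of the value over both batches: without its litter, 9_24, the Tpsab1 log2 fold change was 0.78 (FDR = 0.74), and Tpsb2 went from 0.90 to -0.19. Cpa3 stood at 0.37 ± 0.54 within batch 1 and 0.63 ± 0.62 within batch 2. The test of a different LDHA/B+CRMP1+STIP1 effect between the batches called none of the 8 genes without a level filter, where 0.106% of genes were called, and 1 of them (Fcer1a) had an unadjusted p under 0.05, as 4.04% of genes did.

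CRMP1+GDA animals had wide ranges for their number. Cma1 had 24 to 623 counts with a median of 241 in the 6 animals, beside 10 to 246 counts with a median of 112 in the batch 2 controls, and Tpsab1 had 14 to 344 counts (median 120) beside 12 to 134 (median 58). The groups overlapped. None of the 7 genes was called, nor was any of the 12641 genes tested (0%), and 1 of the 7, Tpsab1 (1.27 ± 0.50), had an unadjusted p under 0.05 as did 462 genes in all (3.65%). DESeq2 and limma called none of the 12641 genes either.

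In STIP1+NSE animals the median counts lay near those of the batch 2 controls. Cpa3 had 58 to 359 counts with a median of 141 in the 8 animals, beside a control median of 171.5, and its log2 fold change against all controls was 0.04 ± 0.51. The 7 genes ran from -0.26 (Hdc) to 0.15 (Tpsab1), and none was called or had an unadjusted p under 0.05, where edgeR called 0.0474% of 12660 genes and 3.19% had such a p. The DESeq2 Wald test called none of the 7 and 3 of the 12660 genes, and limma with the litter as a random effect called none of the 12660. The SEs of the 4 proteases were 0.42 to 0.51. An SE alone does not set what is called, since the FDR depends on all genes of a fit. In LDHA/B+CRMP1+STIP1 animals Tpsab1 was not called at 1.57 with an SE of 0.39. In CRMP1+CRMP2 animals the 4 proteases were called, with log2 fold changes up to 1.80.

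**Figure D3:**
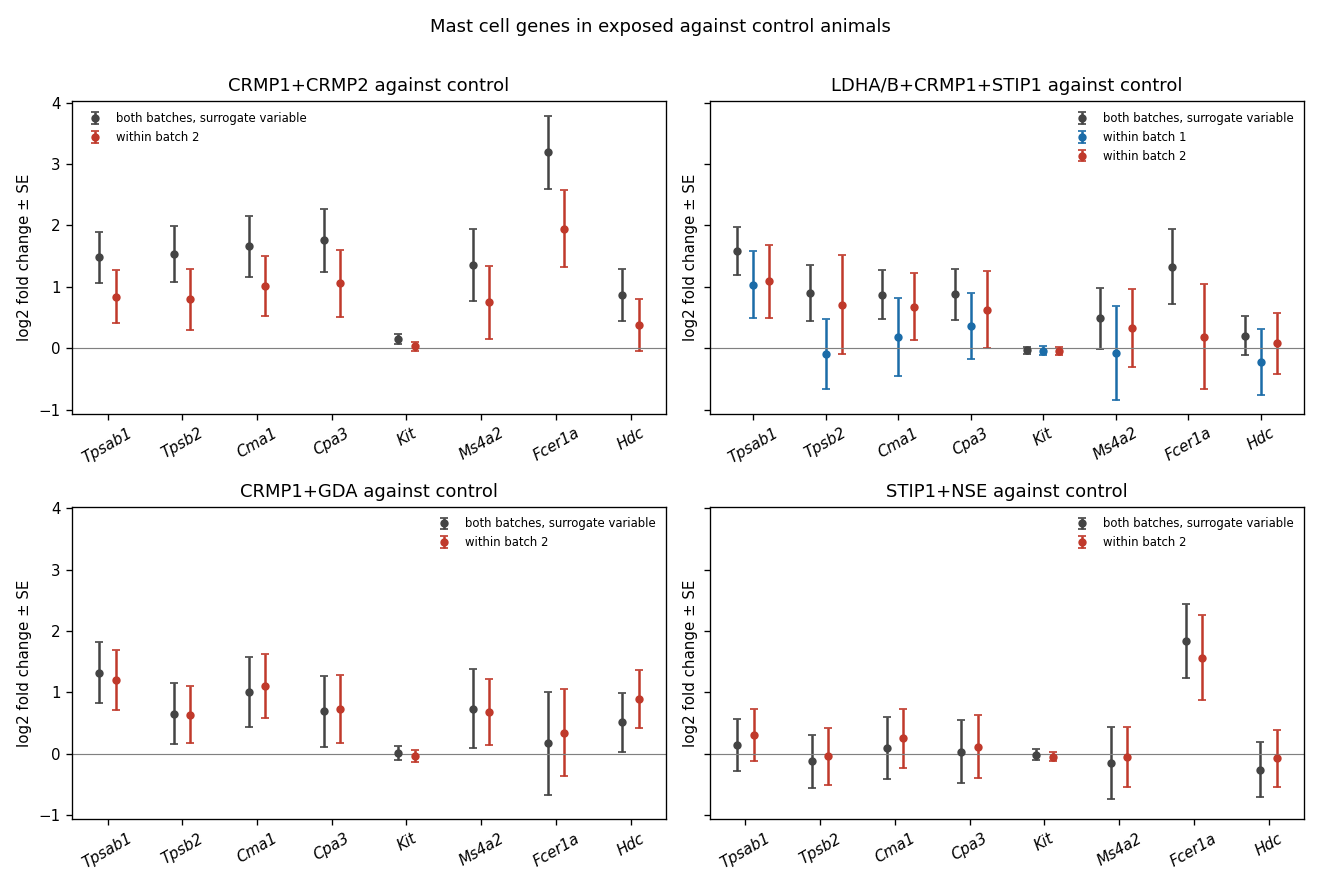
Log2 fold change (± SE) of each gene in exposed against control animals for the 4 patterns, from edgeR without a level filter: over both batches with the surrogate variable (grey), within batch 1 (blue) and within batch 2 (red). The within-batch values of the proteases in CRMP1+CRMP2 animals lie below the values over both batches (Cpa3 1.06 against 1.76). Fcer1a is not drawn within batch 1, where all controls were at 0.

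Over all 47 exposed and 24 control animals, 0 of the 7 genes were called, in a fit that called 4 of 12477 genes (0.0321%). Tpsab1 (1.21 ± 0.34, FDR = 0.23), Cma1 (0.84 ± 0.34) and Cpa3 (0.83 ± 0.35) had an unadjusted p under 0.05, as 10.3% of genes did. The DESeq2 Wald test called Tpsab1 (FDR = 0.098) with 0.128% of genes, while limma with the litter as a random effect called none of the 12477. The test of any difference among the 5 groups within batch 2 called none of the 8 genes, where edgeR called 1 of 12738 genes (0.00785%). Of the 8, 1 (Fcer1a) had an unadjusted p under 0.05, as 7.78% of genes did, but it passed the level filter through 2 exposed animals alone. Without a level filter its p was 0.058 (edgeR), and 0 of the 8 genes had a p under 0.05, beside 1254 of 15105 genes.

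Fcer1a had a distribution of its own. It was looked at in the 5 animals that had the highest counts both of Tph1 (885 to 6813, against at most 50 in the other 66 animals) and of the pineal transcription factor gene Crx (84 to 464, against at most 7). Tph1 encodes the tryptophan hydroxylase of mast cells and of the pineal gland, where serotonin is the precursor of melatonin. In these 5 animals Fcer1a had 52, 36, 18, 12 and 12 counts, and in the other 66 at most 24, while Cpa3 ran from 102 to 451 counts, inside the batch 2 range. Without them, Fcer1a in CRMP1+CRMP2 animals had a log2 fold change of 1.21 ± 0.51 (FDR = 0.22, no level filter), down from 3.19, and none of the 4 proteases was called (Cpa3 1.37, FDR = 0.17), in fits that called 0.598% of genes without a level filter and 2.54% with it. In STIP1+NSE animals, Fcer1a went from 1.84 ± 0.61 to 0.45 ± 0.60 without them, with an FDR of 1.00 in both fits. The part of pineal RNA in these values was not tested further.

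The wider mast cell programme was read from 5 lists of genes that were also drawn up with earlier results known. Of 21 granule protease and content genes, 15 were in the table and 6 passed the filter in the controls. Between the batches of controls, where 41.5% of all genes were called and 21.3% higher, 3 of these were called higher: Mcpt1l1 (log2 fold change 2.38 ± 0.52), Mcpt2 (4.71 ± 0.68) and Slc18a2 (1.56 ± 0.18), the vesicular transporter that loads histamine and is shared with monoamine neurons. Mcpt2, a protease of mucosal mast cells, had a mean of 0.0203 ± 0.0439 CPM in batch 1 controls and 0.665 ± 0.528 CPM in batch 2 controls, and only batch 2 controls passed 1 CPM of it.

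Of the genes of KIT ligand and mast cell identity, 5 passed the filter and 4 were higher in the batch 2 controls. These were Kitlg (1.25 ± 0.13), the ligand of KIT, Gata2 (1.29 ± 0.27), Il1rl1 (1.41 ± 0.50), which encodes the IL-33 receptor ST2, and the transcription factor gene Mitf (0.68 ± 0.26). Among 11 genes of IgE receptor signalling, 2 were called, both lower: the kinase gene Fyn (-0.11 ± 0.03) and the adaptor gene Gab2 (-0.29 ± 0.05). Of 5 histamine receptor and breakdown genes 1 was higher (Hrh3, 0.58 ± 0.09), and of 4 lipid mediator genes 1 was lower (the leukotriene synthase gene Ltc4s, -0.49 ± 0.21), shares below the 41.5% of all genes.

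In CRMP1+CRMP2 animals against all controls, where 11.4% of all genes were called and 4.83% higher, 3 of 7 granule genes were higher: Mcpt1l1 (1.76 ± 0.47, FDR = 0.029), Mcpt2 (2.17 ± 0.56, FDR = 0.027) and Tph1 (6.01 ± 0.76), the last of which rests on the animals with pineal transcripts. Of 5 identity genes 3 were higher: Il1rl1 (1.41 ± 0.40, FDR = 0.035), Mitf (0.93 ± 0.26, FDR = 0.038) and Slc45a3 (0.68 ± 0.24, FDR = 0.084). Of 12 signalling genes 1 was called, Fyn, at -0.10 ± 0.03, and of 5 lipid mediator genes 1, the cyclooxygenase gene Ptgs1 (0.68 ± 0.24). None of 5 histamine genes was called, and none had an unadjusted p under 0.05. Within batch 2, where 1.01% of genes were called, none of the genes named here was, with Mcpt1l1 at 1.08 ± 0.47 (FDR = 0.22) and Il1rl1 at 1.07 ± 0.42 (FDR = 0.19).

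The 3 remaining patterns gave few calls in these lists. Tph1 was called in STIP1+NSE animals and over all exposed animals, and no other gene of the 5 lists was called by edgeR in the LDHA/B+CRMP1+STIP1, CRMP1+GDA or STIP1+NSE animals or over all exposed animals.

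Across animals of a batch the proteases varied together. The correlations with the summed level of the other proteases, over the 43 batch 2 animals and on log2 values, were 0.97 for Cma1, 0.95 for Cpa3, 0.90 for Tpsab1 and 0.86 for Tpsb2 (Pearson's r, given as a description, since animals share litters). Ms4a2 followed at 0.76 and Hdc at 0.64, while Fcer1a reached 0.40 and Kit -0.13. In the 28 batch 1 animals, where counts were lower, the order was led by Cpa3 (0.80), Cma1 (0.79), Tpsb2 (0.70) and Tpsab1 (0.66), and Kit stood at -0.29.

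Genes outside the list were ranked by their Spearman correlation with the summed level of the 4 proteases over the 71 animals. Mcpt1l1 (rho = 0.98) and Mcpt2 (0.90) led, followed by the protease inhibitor gene Serpinb1a (0.86), Msx1 (0.81), Pgm5 (0.81), Klf4 (0.81), Fmo1 (0.80), Hbb (0.80), Fzd7 (0.80) and Lgals3 (0.80). Both batches enter these values, so any gene that differs between them ranks high. Within batch 2 alone, Mcpt1l1 (0.95), Il1rl1 (0.84) and Mcpt2 (0.81) led, while Msx1 stood at 0.42 and Hbb at 0.49. Per exon length Mcpt1l1 stood at 1.21 ± 1.04 RPKM in batch 1 and 8.29 ± 6.61 RPKM in batch 2, above each of the 8 genes but Kit.

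Cpa3 also varied with markers of vessels, meninges, macrophages, microglia and blood within each batch. Its log2 level and the mean log2 CPM of endothelial markers had r = 0.74 and rho = 0.71 in batch 1 (n = 28, adjusted p = 7e-05 and 0.00063, 2-sided permutation test) and r = 0.68 and rho = 0.61 in batch 2 (n = 43, adjusted p = 7e-05 and 0.00063, permutation test). For border macrophage markers r was 0.71 in batch 1 (rho = 0.69, adjusted p = 0.00011 and 0.00063, permutation test) and 0.67 in batch 2 (rho = 0.57, adjusted p = 7e-05 and 0.00067, permutation test). For meningeal markers r was 0.64 (rho = 0.55, adjusted p = 0.00037 and 0.0082, permutation test) and 0.67 (rho = 0.58, adjusted p = 7e-05 and 0.00063, permutation test).

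For microglia r was 0.58 (rho = 0.56, adjusted p = 0.0026 and 0.0081, permutation test) and 0.56 (rho = 0.47, adjusted p = 0.00063 and 0.0051, permutation test). For erythroid markers r was 0.44 (rho = 0.42, adjusted p = 0.049 and 0.064, permutation test) and 0.55 (rho = 0.48, adjusted p = 0.00056 and 0.0051, permutation test).

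Without the 2 animals farthest from the median of the marker score, r for endothelium was 0.69 and 0.55, for border macrophages 0.68 and 0.61, for meninges 0.59 and 0.58, for microglia 0.49 and 0.39 and for erythroid markers 0.46 and 0.40. Markers of thalamus, which differed most between the batches together with choroid plexus, showed r = 0.08 in batch 1 and -0.13 in batch 2 (adjusted p = 0.78 and 0.59, permutation test), with rho = 0.03 and -0.20 (adjusted p = 0.88 and 0.32). Choroid plexus markers showed r = 0.25 and 0.39 (adjusted p = 0.33 and 0.029, permutation test) and rho = 0.29 and 0.38 (adjusted p = 0.24 and 0.038). With the summed level of the 4 proteases in place of Cpa3, choroid plexus in batch 2 missed the threshold (r = 0.32, adjusted p = 0.088, permutation test). Cortical and hippocampal neuron markers showed r = -0.10 and -0.27 (adjusted p = 0.73 and 0.18, permutation test) and rho = -0.11 and -0.36 (adjusted p = 0.73 and 0.049), so that the rank correlation in batch 2 passed and was negative. In all, 28 relations were computed, 14 lists in each batch, and the p-values were adjusted over them. Littermates were treated as independent animals, so these p-values are smaller than a test over litters would give. The part of these tissues in the Cpa3 level was not tested.

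**Figure D4:**
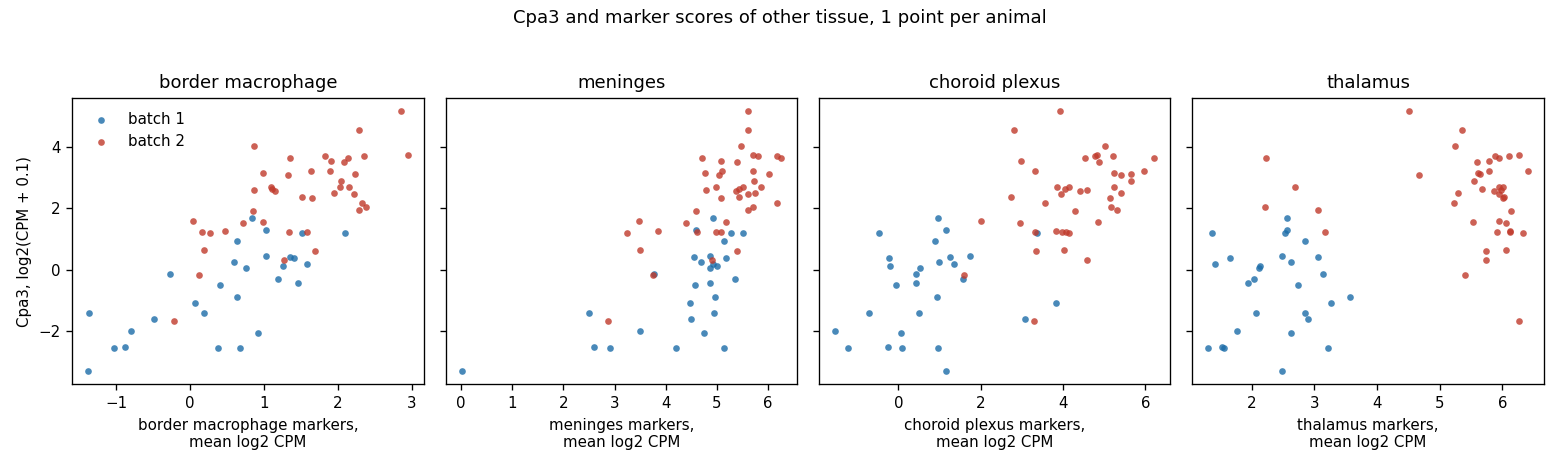
Cpa3, as log2(CPM + 0.1), against the mean log2 CPM of border macrophage, meninges, choroid plexus and thalamus markers, with 1 point per animal, batch 1 in blue and batch 2 in red. Within each batch Cpa3 rises with border macrophage (r = 0.71 and 0.67) and meninges markers (0.64 and 0.67), while for thalamus markers, where 5 batch 2 animals lie inside the batch 1 range, r is 0.08 and -0.13.

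Littermates differed among themselves. Among the 19 batch 2 litters with more than 1 animal, the summed protease level of the highest littermate was 1.01 to 13.9-fold that of the lowest, with a median of 1.56-fold. The widest of these was control litter 9_10, in which 4 animals ran from 1.12 to 15.5 CPM. In the 7 batch 1 litters of 4 animals each, where counts were low, the ratio ran from 3.49-fold to 36.6-fold. In CRMP1+CRMP2 the litter means were 10.4, 16.8, 27.1 and 45.4 CPM, and in the batch 2 controls they were 6.90, 12.9, 14.9 and 18.8 CPM, so that the litter means of both groups overlapped.

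**Figure D5:**
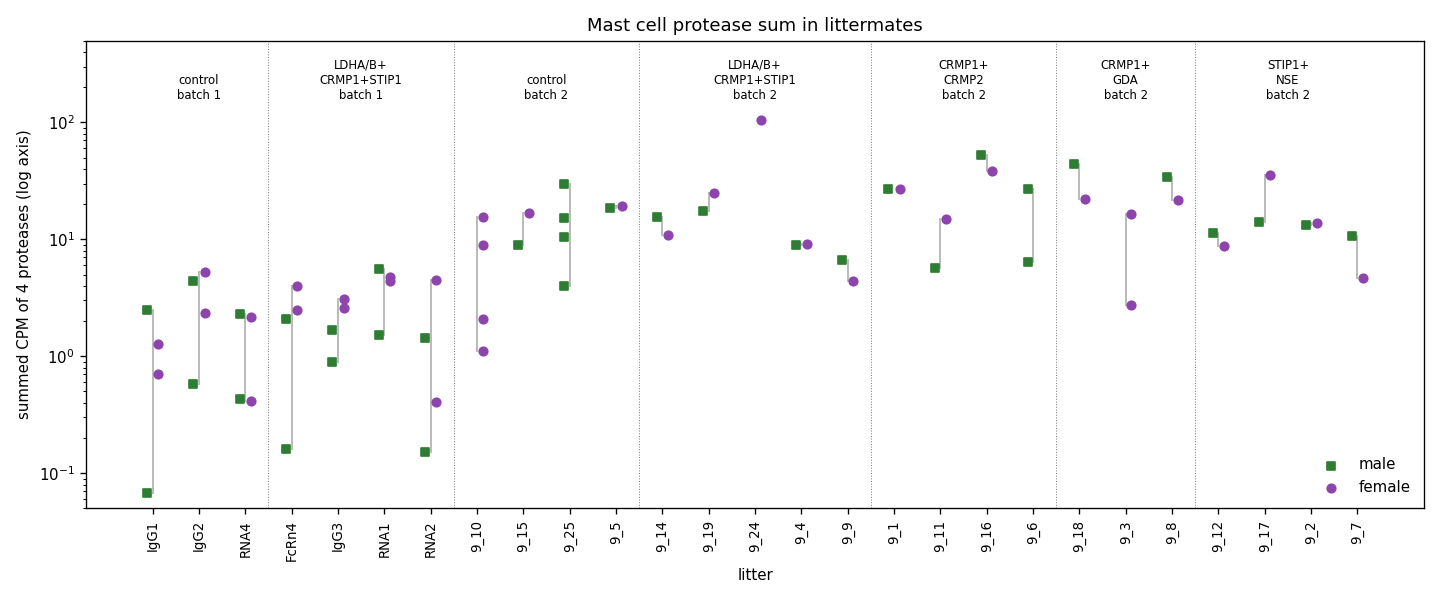
Summed CPM of the 4 proteases (log axis) in every animal, by litter and group, with males as green squares, females as purple circles and a line joining the lowest and highest littermate. Batch 1 litters lie between 0.0676 and 5.56 CPM and batch 2 litters between 1.12 and 105 CPM, and the highest value is the only animal of litter 9_24.

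Males and females overlapped. In batch 2, Cpa3 had 44 to 834 counts in the 21 males (median 172) and 6 to 999 counts in the 22 females (median 157). The mean protease level of the males was above that of their sisters in 7 of the 15 litters with both sexes, and in 2 of 7 in batch 1. None of the 7 genes was called between males and females with batch and pattern as covariates, where edgeR called 0.0641% of 12477 genes. Their log2 fold changes ran from -0.47 (Tpsb2) to 0.08 (Hdc), and none had an unadjusted p under 0.05, as 4.69% of genes had. DESeq2, limma and an edgeR fit with the litter as a block called none of the 7, beside 8, 9 and 9 of the 12477 genes.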

How the data were processed

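RNA from 1 brain slice per animal was sequenced as paired-end reads of 150 bases. The authors aligned the reads to rat rn7 with STAR (version 2.5.4b in the submitters' processing notes). Reads per gene came from featureCounts, with options not given in the sources used here. The deposited table holds raw counts for 17494 genes and 71 animals, with 0 columns that belong to no sample, and was used as deposited. Totals ran from 24880182 to 36234952 counts per library. Of 109 counts between 1 and 9 in the 8 genes, 97.2% were even, against 74.5% of such counts over all genes, as would occur if both ends of a pair were counted, and counts halved and rounded up were an alternative.

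The members and all gene lists were chosen with earlier results of these data known. The text names the 8 genes, genes of the lists where they bear on a count, and the 10 genes outside the 8 most like the summed level of Tpsab1, Tpsb2, Cma1 and Cpa3 by Spearman correlation, among genes counted in at least 36 animals. Groups came from the autoantibody labels and batches from the sample titles. CPM were scaled with TMM factors, and RPKM used the exon lengths of the table.

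The comparisons were fitted over all genes with edgeR 4.0.16 (quasi-likelihood, robust, R 4.3.3) and Benjamini-Hochberg adjustment, with a gene called at an FDR under 0.1. Genes needed at least 1 CPM in 8 animals (all exposed animals, sex) or more than 1 CPM in 2 animals (other comparisons). Fits without a level filter took all genes with at least 10 counts in total. Exposure fits carried the first surrogate variable from sva 3.50.0. DESeq2 1.42.0 (Wald test, NA kept as NA), DESeq2 size factors, limma 3.58.1 with the litter as a random effect, fits within batch and leaving out each litter were alternatives. Combinations of no level filter with another change, the comparison of batches in LDHA/B+CRMP1+STIP1 animals, the ranking within batch 2, the fit without the animal of litter 9_24, the litter block, the interaction, the 5-group test and the fits without the 5 animals of highest Crx were chosen after seeing the data. Correlations were computed within batch on log2(CPM + 0.1) with 100000 permutations in SciPy 1.17.1, and their p-values were adjusted over the 28 relations. The scripts were tested on simulated counts.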

Additional observations from a re-analysis of the deposited data

Results flagged for a closer look

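In 4 groups of 6 to 9 animals, all of batch 2, each of the 8 genes was checked for a highest or lowest animal standing apart from its group, by its gap to the next value over the whole range of the group (Dixon's 95% critical value). This gave 14 such values among 32 sets. Chance flags about 1 in 20 only where values are normally distributed. The CPM of these low counts were skewed towards high values, so chance can flag more, and the 14 cannot be read as an excess. The genes are not independent, since the same animal carried most of them.

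In the LDHA/B+CRMP1+STIP1 group the only animal of litter 9_24, a female, stood above the other 8 animals in 7 genes. It had 25.8 CPM of Tpsab1 where the next animal had 4.35 CPM, 16.6 CPM of Tpsb2 beside 2.28 CPM, 26.4 CPM of Cma1 beside 9.74 CPM and 35.9 CPM of Cpa3 beside 8.74 CPM. Its Ms4a2 was 3.02 CPM beside 0.909 CPM, its Fcer1a 0.863 CPM beside 0.135 CPM and its Hdc 5.53 CPM beside 2.16 CPM. Kit did not stand apart in this animal.

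In the STIP1+NSE group an animal of litter 9_17 stood apart with 6.33 CPM of Tpsab1 (next 3.22 CPM), 3.42 CPM of Tpsb2 (next 1.47 CPM), 12.6 CPM of Cma1 (next 4.95 CPM), 13.1 CPM of Cpa3 (next 6.42 CPM) and 3.71 CPM of Hdc (next 1.86 CPM). An animal of litter 9_12 in the same group had 1.30 CPM of Fcer1a (next 0.406 CPM). In the CRMP1+CRMP2 group an animal of litter 9_1 had 1.43 CPM of Fcer1a (next 0.668 CPM). These 2 animals with high Fcer1a were the 2 with the highest Tph1 counts, 1651 and 6813.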

How the results depend on the processing

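The count of called genes in CRMP1+CRMP2 animals went from 4 to 0 with the litter as a random effect (with or without the level filter), with batch and sex as covariates, within batch 2 (with or without the level filter or the litter term) and without the 5 animals of highest Crx (with or without the level filter), and ran from 0 to 5 when each litter was left out, with 0 without litter 9_1 or 9_6. Over all genes, calls with the level filter fell as well, from 1445 of 12691. They were 8 of 12691 with the litter as a random effect and 491 of 12691 with batch and sex. Within batch 2 they were 127 of 12605, and without the 5 animals 322 of 12658. Without litter 9_6 they were 41 of 12653, but without litter 9_1 1491 of 12660. Over all exposed animals and in LDHA/B+CRMP1+STIP1 animals it went from 0 to 1 (Tpsab1) with the DESeq2 Wald test, and ran from 0 to 1 when litters were left out (1 without litter 9_5 in both, and without litter 9_9 in the latter). Between the batches of controls it was 7, with 5 to 8 over the other settings and 6 to 7 when litters were left out. Ms4a2 passed the level filter in 5 of these 7 fits with a litter left out, so a count of 6 can also mean that it was not tested. Fcer1a, which entered these 7 comparisons only without a level filter, was called in 2 of them and in 1 with the litter as a random effect. The cause of these changes was not tested.

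Directions reversed only in values that were not called, such as Kit over all exposed animals (17 of 187 values of the tested genes when litters were left out). In STIP1+NSE animals, leaving out single litters moved the log2 fold change of Tpsab1 between -0.17 and 0.30, of Cma1 between -0.11 and 0.25 and of Cpa3 between -0.17 and 0.22. Between males and females, Tpsab1 became 0.082 and, without the level filter, 0.059 with the litter as a random effect, and ran from -0.25 to 0.052 when litters were left out, Cma1 became 0.020 and 0.015 with the litter as a random effect, and Cpa3 became 0.034 within batch 2. No sign changed in CRMP1+CRMP2 animals or between the batches of controls under any alternative run.

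Over all genes, calls over the alternatives ran from 0 to 63 (4 as reported) for all exposed animals, 0 to 2889 (1445) for CRMP1+CRMP2, 0 to 44 (2) for LDHA/B+CRMP1+STIP1, 0 to 5 (0) for CRMP1+GDA, 0 to 13 (6) for STIP1+NSE, 2813 to 5469 (5218) between the batches of controls and 6 to 13 (8) for sex. Halving the counts, DESeq2 size factors and CPM without TMM changed no call or level of the 8 genes beyond the spread of animals. Of 28 marker relations, 10 passed by both coefficients for the summed protease level (also with a pseudocount of 1 CPM) and 10 for Cpa3 alone, of which 9 were shared, erythroid in batch 1 passing only for the sum and choroid plexus in batch 2 only for Cpa3. No paired analysis was possible because the replicate numbers were given in accession order and pair nothing. Littermates of both sexes share a dam, and with the litter as a block, a fit added after seeing the data, 0 of the 7 genes were called between males and females. Median counts below 10 limit Fcer1a in both batches and Tpsab1, Tpsb2, Ms4a2 and Hdc in batch 1, and with them the folds between batches.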
